A study of Bos taurus with 18 samples.

Results

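The insulin-like growth factor (IGF) system was described through the 10 genes IGF1, IGF2, IGF1R, IGF2R and IGFBP1 to IGFBP6, taken by gene symbol from the annotation of the array (NCBI gene 281239 for IGF1, 281240 for IGF2, 281848 for IGF1R, 281849 for IGF2R, 282259 to 282262 for IGFBP1 to IGFBP4, and 404185 and 404186 for IGFBP5 and IGFBP6). All 10 had a probe set, and together they held 19 of the 24016 probe sets tested: 4 each for IGF1 and IGF2, 2 each for IGF1R, IGF2R and IGFBP3, and 1 for each of the other binding proteins. RNA came from the dominant preovulatory follicle of 6 cows (Bos taurus), 1 follicle a cow. Cows D, F and G were sampled before the surge of luteinizing hormone (LH), and cows A, B and C at 22 h after gonadotropin-releasing hormone (GnRH), which was given to set off that surge; age and breed are not given in the sources used here. From each follicle came membrane-associated granulosa cells, granulosa cells aspirated from the antrum, and theca cells, so that 18 arrays formed 6 groups of 3. The cows before and after LH were different animals, and an LH effect below is the mean after minus the mean before, with GnRH, the surge and the elapsed time together.

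IGF1 and IGF2 are secreted growth factors that act mainly through the tyrosine kinase IGF1R, while IGF2R takes IGF2 up for degradation. The IGF binding proteins (IGFBPs) hold the ligands outside the cell and, when cut by proteases such as pappalysin, release them. In the ovarian follicle the system is known for strengthening the action of gonadotropins on granulosa and theca cells, and theca is a known source of IGF2 in cattle.

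All levels are log2 RMA signals, in which a step of 1 is a doubling, and a level is compared only with levels of the same probe set. The deposited values ran from 2.29 to 14.9, with array medians of 5.736 to 5.857, and pairs of arrays within a group had correlations of 0.97 to 0.99. A level under 4.62 is called dim, since detection calls were not used here; 8005 probe sets had a mean below that limit. A probe set was called where limma's p, adjusted over all 24016 probe sets by Benjamini-Hochberg, was under 0.05; errors are standard errors from that fit. The cell labels were read against marker genes. The FSH receptor gene FSHR was at 7.69 to 8.55 on the granulosa arrays before LH and at 4.02 to 5.61 on theca, whereas CYP19A1, the aromatase of granulosa, was also at 8.21 to 11.82 on theca before LH, and the theca hormone gene INSL3 was at 9.28 to 11.08 even on the antral arrays after LH. Markers of one population were thus measured on arrays of another.

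**Figure D1:**
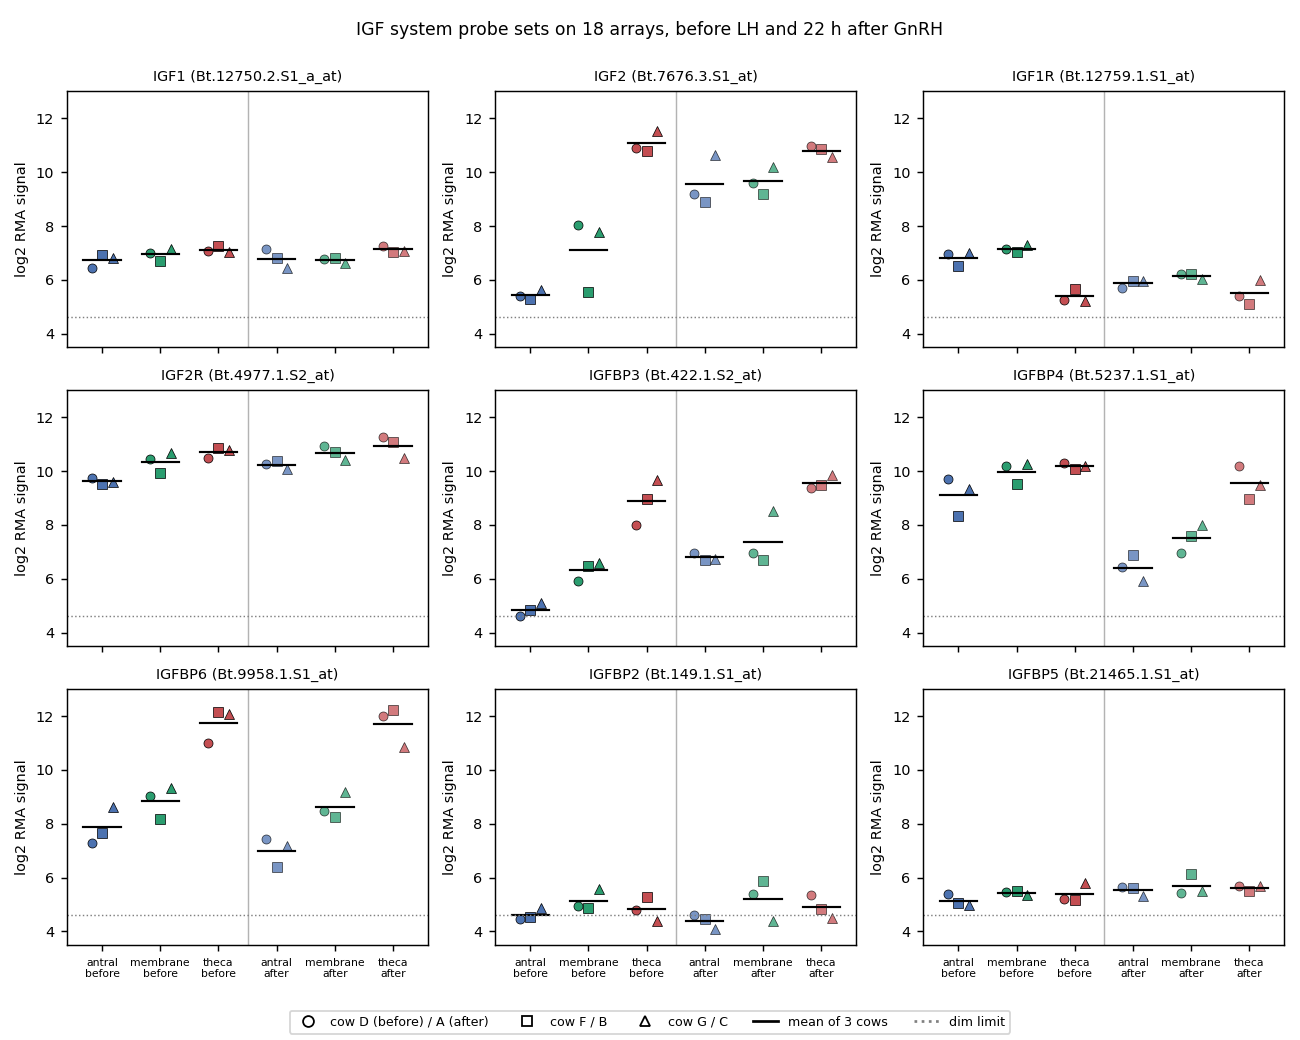
Log2 RMA signal (y axis) of the brightest probe set of 9 genes on 18 arrays, grouped by cell population and time (x axis); symbols are cows, short lines are means of 3 cows, and the dotted line is the dim limit of 4.62. IGF2 runs from 5.29 to 11.53 while IGF1 stays between 6.43 and 7.27; the dim IGFBP1 is left out.

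After LH, IGF2, IGF1R, IGFBP3 and IGFBP4 were called in both granulosa populations, and no member was called in theca. IGF2 rose in both, by 2.55 ± 0.54 in membrane and 4.13 ± 0.54 in antral granulosa, IGFBP4 fell by 2.47 ± 0.38 and 2.73 ± 0.38, and IGF1R fell by 0.99 ± 0.20 and 0.96 ± 0.20. IGFBP3 rose by 1.93 ± 0.43 in antral granulosa on its brighter probe set and by 2.29 ± 0.44 on the dimmer, where only 1 of the 3 arrays before LH was above the dim limit. In membrane granulosa 5 of the 19 probe sets were called, 3 higher and 2 lower, where 21.0% of all probe sets were called. In antral granulosa 7 were called, 5 higher and 2 lower, against 22.4%. In theca limma called 0 of 19, at an adjusted p under 0.05 and also at an unadjusted p under 0.05, where 3.92% of all probe sets were called. The median LH effect over the 19 was -0.02 in membrane, 0.13 in antral granulosa and 0.09 in theca, and over all probe sets it was -0.05, -0.01 and 0. Beside the falls, 7 of 11 measured granulosa markers fell and 1 rose in membrane granulosa, and 6 fell and 1 rose in antral granulosa, with median effects over the list of -1.32 and -1.41. Their part in the falls of IGFBP4 and IGF1R was not tested. In bulk samples a lower signal from fewer cells of a type and from less RNA per cell cannot be told apart.

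**Figure D2:**
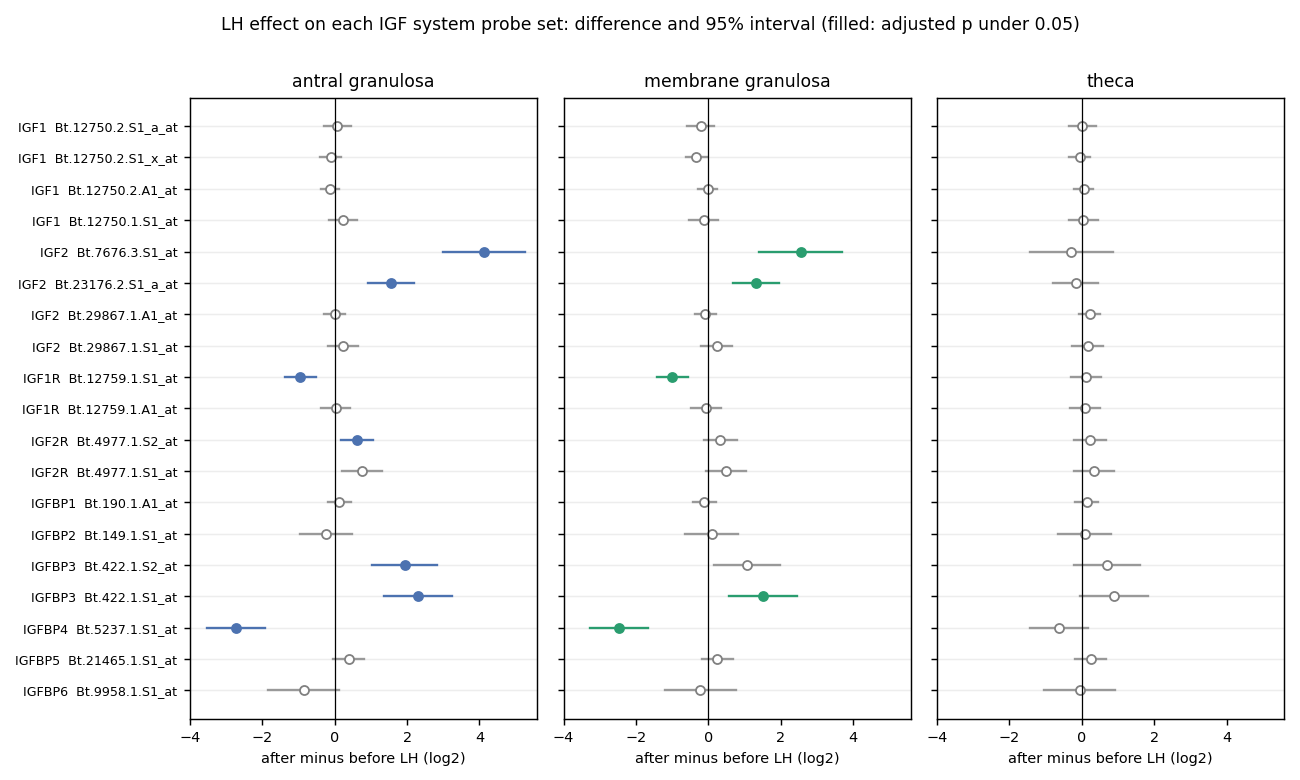
LH effect (x axis, after minus before, log2) with its 95% interval for each of the 19 probe sets (y axis) in antral granulosa, membrane granulosa and theca; filled points have an adjusted p under 0.05. The widest rises are those of IGF2, the falls are those of IGFBP4 and IGF1R, and no point is filled in theca.

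Among the ligands, IGF1 varied little. Its brightest probe set lay between 6.43 and 7.27 over the 18 arrays. Each of its 6 groups, with means from 6.72 to 7.13, overlapped the next in its range of cows. Groups further apart could separate: after LH theca lay at 7.03 to 7.27 and membrane granulosa at 6.62 to 6.82, without a call (adjusted p = 0.111, limma). The other 3 IGF1 probe sets lay at 4.84 to 5.44, at 4.34 to 4.79 and at 2.84 to 3.54, the last of them dim on every array. No IGF1 probe set was called in any comparison.

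IGF2, the fetal-type growth factor of the pair, showed the widest spread of group means of the 10 genes, 5.64. On its brightest probe set antral granulosa read 5.41, 5.29 and 5.62 in cows D, F and G before LH and 9.18, 8.89 and 10.63 in cows A, B and C after it. Membrane granulosa read 8.02, 5.54 and 7.76 before and 9.60, 9.18 and 10.19 after. Theca read 10.91, 10.80 and 11.53 before and 10.98, 10.86 and 10.55 after. All granulosa arrays after LH thus lay above all those before it, cow F's membrane array was the low one of its group, and in theca the times overlapped. The order of means was theca before and after LH, which overlapped, then membrane and antral granulosa after LH, which overlapped. Membrane and antral granulosa before LH came last and overlapped as well. Theca and antral granulosa after LH also overlapped, since cow C read 10.63 in antral granulosa and 10.55 in theca. The rises were 5.86-fold in membrane (adjusted p = 0.00268) and 17.50-fold in antral granulosa (adjusted p = 3.3e-05, limma). In theca the LH effect was -0.29, with a 95% interval of -1.43 to 0.86.

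A second IGF2 probe set rose by 1.32 ± 0.30 in membrane (adjusted p = 0.0046) and 1.56 ± 0.30 in antral granulosa (adjusted p = 0.0012, limma). Its antral levels were 4.17, 4.16 and 4.63 before LH, under the dim limit in cows D and F and just above it in G, and 5.52, 5.83 and 6.28 after it. The other pair stayed at 4.56 to 5.24 and at 3.77 to 4.80 and was not called in any comparison. The probe sets of IGF2 therefore disagree, and only the brighter pair changed. The membrane rise was 1.77 without cow F and 3.01 at most in the alternatives, and both IGF2 rises were called in all 13 alternatives.

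Some transcripts of stroma rose beside IGF2 in granulosa. Of 11 measured fibroblast markers, 5 rose and none fell in antral granulosa after LH. In membrane granulosa 2 rose and 1 fell, and in theca 1 rose and 1 fell. Over all probe sets 22.4% were called in antral granulosa, 21.0% in membrane granulosa and 3.92% in theca. The mean level over the fibroblast list ran from 5.51 to 5.77 on the antral arrays before LH, with COL3A1, DPT, OGN and MFAP5 dim. After LH it ran there from 6.64 to 8.05, with OGN dim. It ran from 7.44 to 8.66 before and 8.69 to 10.11 after LH on the membrane arrays. On the theca arrays it ran from 10.28 to 10.83 before and from 10.98 to 11.34 after LH. The collagen gene COL3A1 read 4.07, 4.31 and 3.36 in antral granulosa before LH and 6.18, 6.19 and 9.67 after it, highest in cow C, whose antral IGF2 was also the highest. Cow F's membrane array, low in IGF2, was low too in COL3A1 (9.18, against 11.53 and 11.57 in D and G), in INSL3 (10.87, against 14.04 and 13.60) and in the theca enzyme gene CYP17A1 (4.90, against 10.42 and 8.84). Of 7 measured theca markers none rose and 1 fell in antral granulosa, and of 10 smooth muscle and pericyte markers 2 rose and 1 fell. On the theca arrays 1 of the 7 theca markers fell and none rose after LH, with a median effect over the list of -0.27. Their mean level was 9.27 to 9.77 before and 8.32 to 8.6 after. There CYP17A1 read 12.67, 10.48 and 12.11 before LH and 5.28, 5.57 and 5.61 after it. The part of theca or stromal RNA in the IGF2 result was not tested.

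The same array values were also read as the distance to theca within a cow. Theca minus antral granulosa was 5.51, 5.50 and 5.91 for IGF2 and 9.11, 9.22 and 10.39 for COL3A1 in cows D, F and G before LH. After LH it was 1.79, 1.97 and -0.08 for IGF2 and 7.65, 7.51 and 3.84 for COL3A1 in cows A, B and C. Antral IGF2 in cow C was thus at the level of that cow's theca, while its COL3A1 was 3.84 below theca. In the same cow COL1A1, DCN, ACTA2 and INSL3 were 3.38, 4.01, 4.79 and 2.88 below theca, and CYP17A1 was 0.83 below. What these distances owe to theca or stromal RNA was not tested. Endothelial markers stayed low in antral granulosa. Their mean level there was 4.37 to 4.44 before and 4.52 to 4.63 after LH, against 6.83 to 7.32 on theca. In antral granulosa VWF, KDR, TIE1, EMCN, PLVAP and ERG were dim before LH, and CDH5, VWF, KDR and TIE1 after it. On theca VWF and KDR were dim before LH, and KDR after it.

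**Figure D3:**
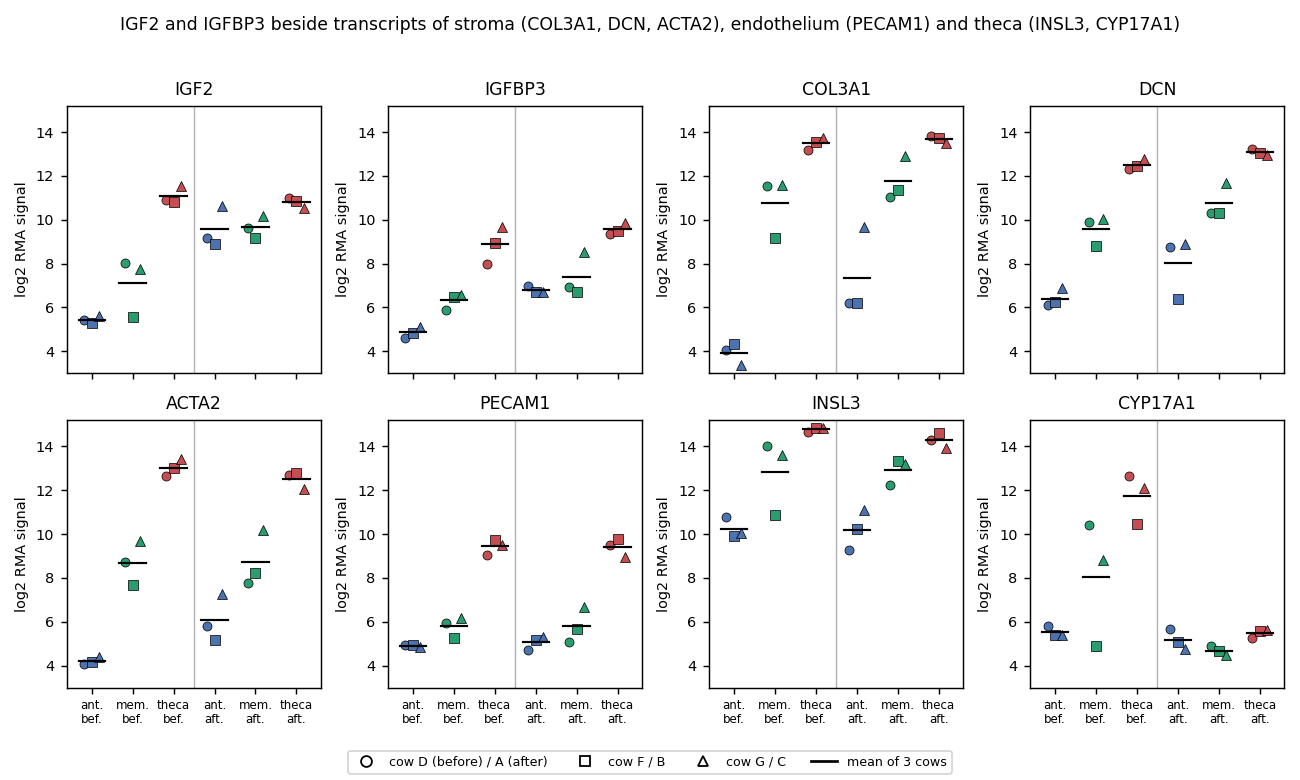
Log2 RMA signal (y axis) of IGF2 and IGFBP3 beside genes of stroma, endothelium and theca, by cell population (ant., antral granulosa; mem., membrane granulosa) and time (bef. and aft., before and after LH); symbols are cows and short lines are means of 3 cows. Antral IGF2 after LH lies at 8.89 to 10.63 with PECAM1 at 4.70 to 5.29, and cow F's membrane array before LH is low in IGF2, COL3A1, INSL3 and CYP17A1.

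Of the receptors, IGF1R, which carries the growth signal, was highest in granulosa before LH. On its brighter probe set membrane granulosa read 7.16, 7.03 and 7.28 before LH and 6.22, 6.23 and 6.03 after it. Antral granulosa read 6.97, 6.51 and 6.99 before and 5.70, 5.96 and 5.94 after. Theca read 5.27, 5.67 and 5.23 before and 5.40, 5.11 and 6.0 after. The granulosa times did not overlap, and both granulosa populations lay above theca before LH. The falls had adjusted p of 0.00196 in membrane and 0.00235 in antral granulosa (limma) and were called in all 13 alternatives. In theca the effect was 0.11, with a 95% interval of -0.31 to 0.54. The dimmer IGF1R probe set stayed at 4.74 to 5.72 and was not called in any comparison.

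IGF2R, the receptor that clears IGF2, was lowest in antral granulosa before LH. On its brighter probe set antral granulosa read 9.73, 9.52 and 9.60 before LH and 10.26, 10.39 and 10.06 after it. Membrane granulosa read 10.45, 9.94 and 10.67 before and 10.92, 10.72 and 10.43 after, and theca read 10.50, 10.84 and 10.80 before and 11.25, 11.09 and 10.47 after. Only the antral times did not overlap. The antral rise of 0.62 ± 0.21 had an adjusted p of 0.0473 and stayed called in 6 of 13 alternatives; leaving out cow D, F, G, A or B ended it. The dimmer IGF2R probe set gave 0.75 with an adjusted p of 0.0501 (limma).

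Among the binding proteins, IGFBP3, the main carrier of IGFs in blood, was higher after LH in granulosa and highest in theca. On the brighter of its probe sets antral granulosa read 4.62, 4.84 and 5.11 before LH and 6.96, 6.69 and 6.72 after it. Membrane granulosa read 5.90, 6.47 and 6.57 before and 6.94, 6.69 and 8.52 after. Theca read 7.98, 8.95 and 9.68 before and 9.36, 9.50 and 9.85 after. Antral granulosa rose without overlap (adjusted p = 0.00344, and 0.00118 on the dimmer probe set, limma), in all 13 alternatives. In membrane granulosa the times did not overlap either, cow C being the high one after LH. Its call rested on the dimmer probe set, which rose by 1.51 ± 0.44 (adjusted p = 0.022), while the brighter gave 1.07 ± 0.43 (adjusted p = 0.0897, limma). That call ended without cow D, G or C, with an adjusted p of up to 0.0797, and with only the arrays compared (0.0631). Without cow C the rise was 0.99. In theca the effect was 0.70, with a 95% interval of -0.21 to 1.60. Some fibroblast markers also rose in granulosa after LH, as given above, but the arrays did not always rank alike. In membrane granulosa after LH cow C was highest in both, at a mean marker level of 10.11 and an IGFBP3 of 8.52. In antral granulosa after LH cow C had the highest mean marker level, 8.05. The IGFBP3 of that array read 6.72 on the brighter probe set, between 6.69 in cow B and 6.96 in cow A. On the dimmer probe set it read 6.03, the lowest of that group. The part of the fibroblast markers in this result was not tested.

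IGFBP4, an inhibitor of IGF action and the known substrate of pappalysin, showed the widest fall. Membrane granulosa read 10.18, 9.51 and 10.25 before LH and 6.96, 7.59 and 7.99 after it. Antral granulosa read 9.71, 8.34 and 9.33 before and 6.42, 6.87 and 5.91 after. Theca read 10.30, 10.08 and 10.19 before and 10.18, 8.98 and 9.48 after. The fall was 5.53-fold in membrane and 6.62-fold in antral granulosa, with no overlap, and theca after LH lay above every granulosa array of that time. The adjusted p was 0.000183 in membrane and 5.97e-05 in antral granulosa (limma), and both falls were called in all 13 alternatives. The theca effect was -0.64, with a 95% interval of -1.44 to 0.16.

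IGFBP6, which prefers IGF2 over IGF1, separated theca from granulosa. Theca read 11.01, 12.16 and 12.09 before LH and 11.99, 12.24 and 10.84 after it. Membrane granulosa read 9.05, 8.16 and 9.34 before and 8.46, 8.25 and 9.18 after. Antral granulosa read 7.29, 7.67 and 8.64 before and 7.43, 6.41 and 7.17 after. Every theca array lay above every granulosa array, and the times overlapped in all 3 populations. The LH effects were -0.22 in membrane, -0.86 in antral granulosa and -0.06 in theca, none of them called.

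The remaining binding proteins, which like the others bind IGFs outside the cell, were at low levels. IGFBP5 lay at 4.98 to 6.13. IGFBP2 lay at 4.08 to 5.88 and was above the dim limit on 10 of 18 arrays, and IGFBP1 at 4.27 to 4.91, above it on 8. None of the 3 was called in any comparison. Counted over the 19 probe sets, the groups before and after LH did not overlap for 6 in membrane granulosa, 8 in antral granulosa and 0 in theca, where 34.5%, 36.7% and 20.4% of all probe sets did not.

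Theca and membrane granulosa of the same follicle were then compared within each cow. Before LH, theca was higher in IGF2, IGFBP3 and IGFBP6 and lower in IGF1R. After LH it was higher in IGFBP3, IGFBP4 and IGFBP6 and lower in IGF1R. Before LH 6 of 19 probe sets were called, 5 higher and 1 lower in theca, where 34.3% of all probe sets were called. After LH 5 were called, 4 higher and 1 lower, against 25.8%. The members' shares lay near those of all probe sets at both times.

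**Figure D4:**
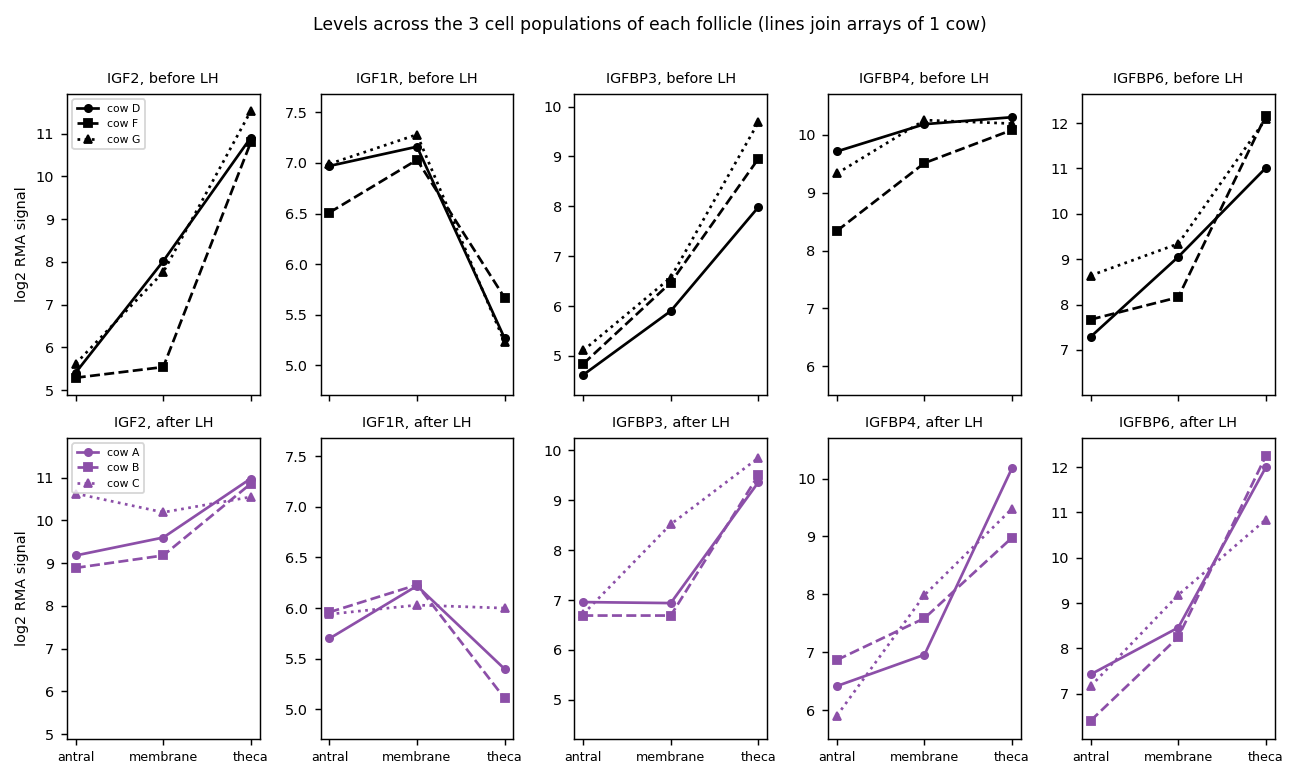
Log2 RMA signal (y axis, with its own range for each gene) of 5 genes in the antral granulosa, membrane granulosa and theca of each follicle; lines join the arrays of 1 cow, with cows D, F and G before LH in the upper row and A, B and C after it in the lower. IGFBP6 climbs to theca in every cow at both times, whereas IGFBP4 is nearly level between membrane and theca before LH and higher in theca after it.

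Before LH, theca exceeded membrane granulosa by 3.97 ± 0.44 in IGF2 (adjusted p = 2.83e-05), by 2.56 ± 0.31 in IGFBP3 (6.21e-05) and by 2.90 ± 0.43 in IGFBP6 (0.000221, limma). IGF1R was lower in theca by 3.40-fold, with a difference of -1.77 ± 0.21 (adjusted p = 4.98e-05, limma). IGFBP4 differed by 0.21 ± 0.35 (adjusted p = 0.694). The called differences held in all 13 alternatives. Beside them, 10 of 11 granulosa markers were lower in theca and 9 of 11 fibroblast markers, 8 of 10 smooth muscle and pericyte markers and 11 of 12 endothelial markers were higher. Which cells of the theca samples carried a member was not tested.

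After LH, IGFBP4 stood 2.04 ± 0.35 higher in theca (adjusted p = 0.00129), IGFBP3 2.18 ± 0.31 (0.000446) and IGFBP6 3.06 ± 0.43 (0.00037, limma). IGF1R differed by -0.66 ± 0.21 (adjusted p = 0.0359), a call that ended without cow D, A or B and with only the arrays compared (0.107). Without cow B the difference was -0.43, and in cow C theca read 6.0 and membrane 6.03. IGF2 was 1.14 ± 0.44 higher in theca and was not called (adjusted p = 0.0767). It was called without cow C, at 1.52 with an adjusted p of 0.0332, without cow F, at 0.0286, and with only the arrays compared, at 0.0452. The second IGF2 probe set, at 0.50 ± 0.23, was not called (adjusted p = 0.141). Without cow C it was called, at 0.8 with an adjusted p of 0.0345 (limma). The call of the second IGFBP3 probe set, 1.84 ± 0.38, ended without cow A (adjusted p = 0.0544, limma). Beside these, 8 of 11 fibroblast, 9 of 10 smooth muscle and pericyte and 10 of 12 endothelial markers were higher in theca after LH and 7 of 11 granulosa markers were lower, and their part was not tested.

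Whether LH acted differently in theca and membrane granulosa was tested as the difference of the 2 LH effects. It was called for 4 of 19 probe sets, 2 each way, where 9.13% of all probe sets were called. The LH effect on IGF2 was lower in theca by 2.84 ± 0.62 on one probe set (difference -2.84, adjusted p = 0.0123) and by 1.5 ± 0.33 on the other (difference -1.5, 0.0125). That on IGF1R was 1.11 ± 0.30 higher (adjusted p = 0.0363) and that on IGFBP4 1.82 ± 0.50 higher in theca (0.0381, limma). The brighter IGF2 probe set lost its call without cow A (adjusted p = 0.0501), and the second without cow G or B and with no block for the cow (0.0562, 0.0602 and 0.0627). The IGF1R call, held in 8 of 13 alternatives, ended without cow D, G, A or C and with only the arrays compared. The IGFBP4 call, held in 6, ended without cow D, F, G or A, with only the arrays compared (0.0621), with trended and robust moderation (0.051) and with no block for the cow (0.0709, limma). Without cow A the IGFBP4 difference was 1.23.

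Antral and membrane granulosa of a follicle differed less. Before LH 4 of 19 probe sets were called, all lower in antral granulosa, where 1.77% of all probe sets were called in either direction and 1.09% were called lower. They were the pair of IGF2R, at -0.74 ± 0.17 and -0.80 ± 0.18 (adjusted p 0.0488 and 0.0404), and the pair of IGFBP3, at -1.46 ± 0.31 and -1.73 ± 0.38 (0.0385 and 0.0393, limma). With any one of cows D, G, A or B left out, none of the 4 was called. Without cow F the brighter IGF2R probe set alone of the 4 stayed called, and without cow C the pair of IGFBP3 did. The dimmer IGFBP3 probe set was under the dim limit in antral granulosa in cows D and G, so its difference there rests on 1 array above that limit. IGF2 was 1.67 ± 0.44 lower in antral granulosa, not called (adjusted p = 0.0718), and was called at -2.37 without cow F. Of the fibroblast markers 5 of 11 were also lower in antral granulosa at this time, and their part was not tested.

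After LH limma called 0 of 19 between antral and membrane granulosa, with 9 at an unadjusted p under 0.05, where 3.00% of all probe sets were called. IGFBP6 was at -1.63 ± 0.43 (adjusted p = 0.0584) and IGFBP4 at -1.11 ± 0.35 (0.0933). The LH effects of these populations did not differ at the threshold for any member, with 0 called by limma, 1 at an unadjusted p under 0.05, and 0% of all probe sets called. For IGF2 the LH effect was 1.58 ± 0.62 larger in antral granulosa, with a 95% interval of 0.24 to 2.92 and an adjusted p of 0.504.

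Around the members, 34 of 53 further genes of the pathway had a probe set with 1 gene symbol; IRS1 and IRS2, the docking proteins below the receptor, are not analysed here. Of 6 measured IGFBP proteases and their inhibitors, 4 fell and none rose in membrane granulosa after LH, 2 fell in antral granulosa and 1 fell in theca. Over all probe sets 21.0%, 22.4% and 3.92% were called in the LH effects of membrane granulosa, antral granulosa and theca. PAPPA, which encodes pappalysin, read 5.24, 5.09 and 5.20 in membrane granulosa before LH and 4.27, 4.27 and 4.30 after it, so that it fell to dim levels, by at least 0.55 (adjusted p = 0.000207, limma). In antral granulosa its effect was -0.20 and was not called, and the other PAPPA probe set was dim throughout the LH comparisons. ADAM12, a metalloprotease able to cut IGFBPs, fell by 3.33 ± 0.40 in membrane and fell by 2.65 ± 0.40 in antral granulosa (adjusted p 1.89e-05 and 0.000141). ADAM9 fell by 1.49 and 1.44. STC1, an inhibitor of pappalysin, fell in theca, from 10.13, 11.18 and 10.58 to 7.59, 8.78 and 8.46, by 2.35 ± 0.44 (adjusted p = 0.0058, limma). Its effects of -0.85 in membrane and -0.65 in antral granulosa were not called, and neither was the difference between theca and membrane granulosa. Before LH STC1 was 4.24 ± 0.43 higher in theca than in membrane granulosa. Of the 6 genes of this list, 2 were higher and 4 lower in theca before LH, and 3 were higher and none lower after it. Over all probe sets 34.3% and 25.8% were called at these times.

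Of 6 measured related binding proteins and receptors, 2 fell and none rose in each granulosa population, and none was called in theca. The shares called over all probe sets were again 21.0%, 22.4% and 3.92%, for membrane granulosa, antral granulosa and theca. IGFBP7, a relative that binds IGFs weakly, fell by 1.12 ± 0.16 in membrane and 1.07 ± 0.16 in antral granulosa (adjusted p 0.00011 and 0.000143). INSR, the insulin receptor, fell by 2.24 ± 0.51 and 1.86 ± 0.51 (adjusted p 0.00459 and 0.0144, limma). A second INSR probe set fell by 1.92 and 1.63, and the other 3 were not called. GHR, the growth hormone receptor, lay at 4.09 to 4.88 on its brightest probe set and was not called. In IGFBP7 and INSR the LH effect in theca differed from that in membrane granulosa, by 0.85 and 1.54 (adjusted p 0.00388 and 0.0437, limma).

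Of 22 measured signalling genes below IGF1R, 2 rose in membrane granulosa, 3 rose and 1 fell in antral granulosa, and none was called in theca, counting the brightest probe set of each gene. Both granulosa counts lay below the shares over all probe sets, 21.0% in membrane and 22.4% in antral granulosa, with 3.92% in theca. Other probe sets differed in membrane granulosa: a dimmer one of PIK3CA rose by 0.93 (adjusted p = 0.00228) where the brightest gave 0.70 and was not called (0.0769), and a dimmer one of AKT2 fell by 1.00 (0.001) where the brightest gave 0.42 and was not called (0.171, limma). SOCS2, a feedback inhibitor of cytokine and growth hormone signalling, rose by 1.43 ± 0.29 in membrane granulosa, and the phosphatase gene PTPN1 by 1.00 ± 0.15 there and 0.53 ± 0.15 in antral granulosa. The kinase genes AKT1 and PIK3CA rose by 0.52 ± 0.16 and 0.81 ± 0.27 in antral granulosa, where the adaptor SHC1 fell by 0.61 ± 0.17. Between theca and membrane granulosa 4 were higher and 4 lower before LH, and 2 were higher and 6 lower after it. Over all probe sets 34.3% and 25.8% were called in these comparisons. TSC1, a brake on growth signalling, was at -1.84 ± 0.21 before LH and SOCS2 at 2.51 ± 0.27. The median LH effect over these genes was 0.29 in membrane granulosa, 0.10 in antral granulosa and 0.13 in theca, beside -0.05, -0.01 and 0 over all probe sets.

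**Figure D5:**
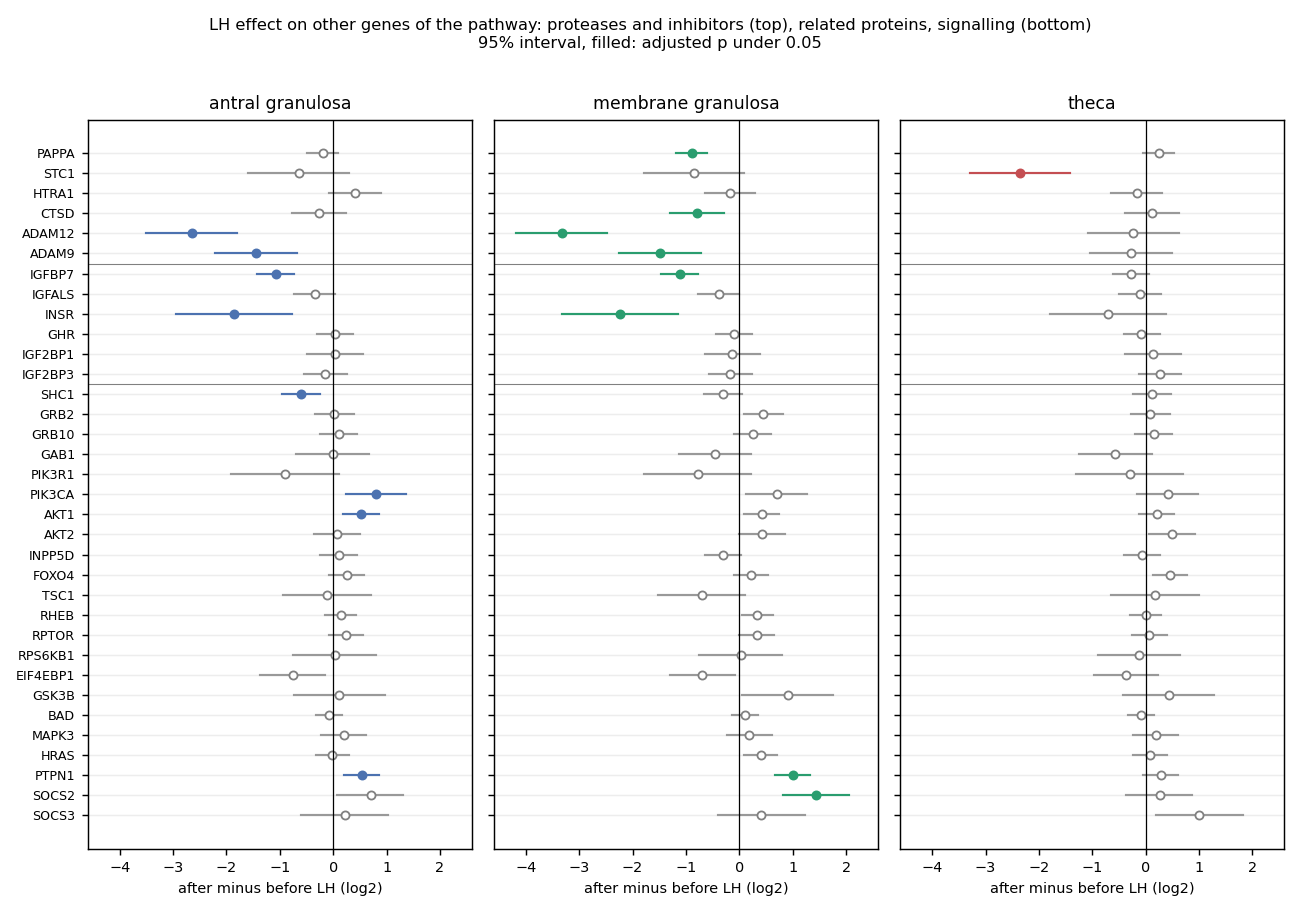
LH effect (x axis, after minus before, log2) with its 95% interval for the 34 further pathway genes measured (y axis) in antral granulosa, membrane granulosa and theca, where filled points have an adjusted p under 0.05. ADAM12, IGFBP7 and INSR fell in both granulosa populations, and STC1 fell in theca.

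Other genes shared the pattern of the widely varying members over the 6 groups, each gene being centred on its mean of group means and compared by the root mean square difference. Nearest to IGF2 were MMP23, DPYSL3 and ANXA3, at 0.23, 0.32 and 0.37. Nearest to IGFBP3 were SPARC, a matrix protein, CD200 and CD55, at 0.19, 0.28 and 0.29. IGFBP4 was followed by ANGPT2, an angiopoietin, FKBP14 and GSTM3, at 0.31, 0.33 and 0.33, and IGFBP6 by GYPC, FOLH1 and OTULINL, at 0.25, 0.26 and 0.27. These likenesses are descriptions over 6 group means that share the same cows.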

How the data were processed

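RNA of 3 cell populations from 6 cows was measured on 18 Affymetrix 3′ expression arrays. RNA had been prepared with Trizol and phase lock gel and labelled with biotin by in vitro transcription, per the labels' protocols. Each deposited value is the log2 signal of a probe set, which the authors made with RMA in Partek 6.5, per the submitters' processing notes; its settings are not given in the sources used here. RMA puts arrays on a common distribution, so a shift of total RNA cannot be seen. Precision is limited by the 18 arrays.

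Of 24128 probe sets, 112 controls were left out. Genes were named from the platform annotation: 13292 tested probe sets have 1 symbol, 86 several and 10638 none; all 10 member gene IDs matched the RefSeq table of ARS-UCD2.0. A gene with several probe sets takes the brightest. Tests used limma 3.58.1 in R 4.3.3 on all arrays, with 1 mean per group for the LH effects and with the cow as a fixed block for comparisons within a follicle. Arrays of a cow deviated together in 17 of 18 pairs (r over 0.1; range -0.02 to 0.69), and arrays of different cows with the same number in 1 of 9. Replicates are separate cows.

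Members, lists and tests were chosen with earlier results of these data known. Every member is described. From the pathway lists PAPPA, STC1, IRS1, IRS2, INSR, GHR and IGFBP7 are named. Up to 4 genes of smallest adjusted p per list, LH effect and theca contrast were marked for naming, and only some of them are given. For members whose group means span at least 2, the 3 nearest genes are named. The fits were tested on simulated data: for the LH effect in theca, 68% of changes of 1 and 88% of changes of 2 (log2) were found, over 24016 probe sets. That simulation called 148 probe sets in all, against 941 on the data. The Benjamini-Hochberg limit depends on that number, so these shares are not detection rates for the data. Alternatives were quantile normalization, median centring, leaving out the dimmest probe sets, trended and robust moderation, and only the arrays compared. Others were the cow as a random block, each cow left out, the replicate block for the LH effects, and no block for the cow in the other comparisons. Figures were drawn with matplotlib 3.10.9.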

Additional observations from a re-analysis of the deposited data

Results flagged for a closer look

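These results stand out because LH moved a member differently in theca than in membrane granulosa, by a test of the difference itself (limma, cow as a block). For IGF2 the difference of LH effects, theca minus membrane granulosa, was -2.84 (adjusted p = 0.0123) on the brightest probe set and -1.5 (0.0125) on the second. For IGF1R, on its brighter probe set, it was 1.11 (adjusted p = 0.0363), and for IGFBP4 1.82 (0.0381). In each of them the LH effect was called in membrane granulosa and not in theca. These calls held in 12 and 10 of 13 alternatives for the IGF2 probe sets, in 8 for IGF1R and in 6 for IGFBP4. With no block for the cow the second IGF2 probe set (adjusted p = 0.0627) and IGFBP4 (0.0709, limma) lost theirs.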

How the results depend on the processing

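The value of each member probe set was recomputed under 13 alternatives per comparison, or 12 for the 4 that are left out with the dimmest probe sets. Of 403 recomputed called values 339 stayed called, and of 2187 values in all 64 lost and 16 gained a call; none that was called in either setting changed direction, while 88 uncalled values crossed 0. The count of called probe sets was unstable for antral minus membrane granulosa before LH. It was 4, and it became 2 with only the arrays compared, 1 with the cow as a random block, 0 with no block for the cow and 0 to 2 with a cow left out. After LH the same contrast went from 0 to 2 with only the arrays compared and to 1 with the random block. The difference in LH effect between theca and membrane granulosa, 4, became 2 with only the arrays compared, 2 with no block for the cow and 1 to 3 with a cow left out. Theca minus membrane granulosa after LH, 5, ranged from 3 to 7 with a cow left out. For the LH effects the replicate numbers name different cows; with the replicate number as a block, membrane granulosa went from 5 to 6 called probe sets, antral granulosa stayed at 7 and theca at 0. That block ended the call of the brighter IGF2R probe set in antral granulosa (adjusted p = 0.0507), and it added the dimmer one (0.0289) and, in membrane granulosa, the brighter IGFBP3 probe set (0.0303). The cause of these changes was not tested. With 3 cows a group, changes of under 1 on the log2 scale were often missed on simulated data: for the LH effect in membrane granulosa, 58% of changes of 1 and 10% of changes of 0.5 were found. That simulation called 141 probe sets, against 5041 on the data, so its limit was stricter and these shares do not carry over. Levels near the dim limit of 4.62 understate a fall.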
